A study of Mus musculus with 24 samples.

Results

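The ATF4 amino-acid stress response genes described here are 10 mouse genes: Atf4, Atf5 and Ddit3 (transcription factors), Trib3, Sesn2 and Chac1 (regulators induced by the response), and Asns, Psat1, Phgdh and Shmt2 (enzymes that make or convert amino acids). They were chosen by name, found by gene symbol in the GRCm38 annotation, and taken out of 15839 genes with at least 1 read in either line. All 10 had reads in C2C12, and 9 had reads in NSC34. The libraries came from C2C12, a mouse myoblast line that can form muscle fibres in culture, and NSC34, a mouse line with motor neuron features, both labelled WT. Each line was sampled alone (control, 6 libraries) and after 3 days with the other line (co-culture, 6 libraries). The cells were lysed in Trizol and their RNA was sequenced on a Nanopore MinION. The series title names Apoe3, Lrp4 and the clustering of acetylcholine receptors, but no library carries an Apoe label. Nothing in the labels tells how co-cultured cells were separated by line, or whether replicates were separate cultures, so p-values measure only the spread between these libraries, which may be technical.

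When amino acids run short, unfolded protein builds up in the endoplasmic reticulum, or other stresses act, kinases phosphorylate the initiation factor eIF2. General translation then slows, while short reading frames upstream of the Atf4 coding sequence let ATF4 protein be made. ATF4, with C/EBP-family partners, activates genes for amino acid synthesis, uptake and tRNA charging, together with Ddit3 (CHOP) and its own inhibitors. Because ATF4 is controlled largely through translation, the level of Atf4 mRNA is not a measure of ATF4 protein. In skeletal muscle ATF4 is known for its part in atrophy, and in motor neurons CHOP is known as a marker of endoplasmic reticulum stress.

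Depth set what could be measured. The C2C12 libraries held 121154 to 658075 reads and the NSC34 libraries 88 to 30314, so that 3 reads, the limit allowed by a count of 0, amount to 0.906 reads per 1000000 (CPM) over all C2C12 libraries and to 42.3 CPM over all NSC34 libraries. All NSC34 controls together held 15858 reads, and co-culture library 2 held 30314 of the 55007 NSC34 co-culture reads. The lines matched their labels in part. All 12 muscle markers had reads in C2C12, while in NSC34 only Chrna1, and Mb with 1 read, did. Of 12 neuronal and motor neuron markers, 7 had reads in NSC34 co-culture libraries and 5 in controls, with Prph (peripherin) and Tubb3 the most abundant, but Mnx1, Slc18a3, Slc5a7, Nefm and Stmn2 were at 0 in both groups, and Chat had 1 read. Stmn2 instead stood at 117.5 CPM pooled in C2C12 controls and 106.5 CPM in C2C12 co-culture.

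Promoters of the members were searched for the core of the C/EBP-ATF composite element, the kind of site through which ATF4 is known to act, written as TGATGNAA (N is any base) and searched on both strands. RefSeq promoters (GRCm38.p6, 250 bases before to 50 after the start) were found for all 10 genes. The core was in 3 of the 10 genes, Trib3, Asns and Chac1, against 4.51% of all 27025 genes with a listed promoter. Each match is printed with 11 bases on each side, read along the strand of the gene, with the matched bases in capitals.
Trib3, chr2:152344028-152344057, minus strand, match starting 14 bases after the start and lying on the opposite strand: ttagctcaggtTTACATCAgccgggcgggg
Asns, chr6:7693214-7693243, minus strand, match starting 23 bases before the start: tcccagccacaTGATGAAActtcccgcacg
Chac1, chr2:119351038-119351067, plus strand, match starting 193 bases before the start and lying on the opposite strand: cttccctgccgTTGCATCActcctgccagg
A match describes these letters and not a bound site. The other 7 genes lacked these letters in this window, which says nothing of sites elsewhere. Among the aminoacyl-tRNA synthetases, a group of known ATF4 targets, 5 of the 10 genes with a listed promoter held the core, the highest share of the lists. It was in 0 of 8 further serine, glycine and folate enzymes, 3 of 11 other amino acid and nitrogen enzymes and 2 of 7 amino acid transporters. It was also in 5 of 21 partner factors and stress-induced regulators, 1 of 12 eIF2 pathway genes and 1 of 18 genes of the ATF6 and IRE1 branches.

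In C2C12, no member was found to differ between libraries grown with and without NSC34 cells. Together the 10 genes took 717.5 ± 83.1 CPM of all reads in controls and 720 ± 73.6 CPM in co-culture (SD, n = 6 each), and the libraries of the groups overlapped. Of the 2570 genes with enough reads to be tested, 37 (1.44%) passed at an adjusted p under 0.05 in edgeR's quasi-likelihood test, 21 (0.817%) higher and 16 (0.623%) lower in co-culture. The 5 members tested were Atf4, Atf5, Asns, Psat1 and Phgdh, and none of them passed, nor did any have an unadjusted p under 0.05. With DESeq2 in place of edgeR, Atf4 (adjusted p = 0.951) and Psat1 (0.964) did not pass either, and the other 3 were given no adjusted p.

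Atf4 (chr15:80255184-80257541, plus strand), the central transcription factor, was the member with the most reads, 824 in C2C12. Its level in controls had a lowest value of 191, a median of 241 and a highest of 277 CPM of all reads, and in co-culture 191, 246 and 299 CPM. The groups overlapped over almost their whole range. Co-culture over control, it differed by 0.04 on the log2 scale (SE 0.13, 95% interval -0.23 to 0.30), at an adjusted p of 0.961. The farther end of that interval is a difference of 0.30.

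Atf5 (chr7:44812256-44816658, minus strand), a related factor that is itself translated under eIF2 phosphorylation, ranged from 50.2 to 163 CPM in controls and from 46.2 to 97.0 CPM in co-culture. Control library 6, at 163 CPM, was the highest of the 12, and the other 5 controls lay between 50.2 and 116 CPM. Its log2 fold change was -0.27 (SE 0.28, 95% interval -0.85 to 0.30, adjusted p = 0.752 in edgeR). It was -0.03 without control library 6 and -0.52 without control library 2, so its size rested on single libraries. The chi-square of the 115 control reads over the 6 libraries was 5.02 times its degrees of freedom, against 0.415 to 2.06 for the other members and groups in C2C12 with enough reads for that ratio. Pairs of control libraries compared over all genes gave 1.37 to 3.04, so libraries differ by more than counting noise in general.

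The serine and asparagine enzymes stayed within the spread of their replicates. Asns (chr6:7675169-7693254, minus strand), which makes asparagine, had a median of 74.2 CPM in controls (57.8 to 111) and of 73.3 CPM in co-culture (48.8 to 85.5), with a log2 fold change of -0.12 (95% interval -0.54 to 0.30). Phgdh (chr3:98313170-98339990, minus strand), the first enzyme of serine synthesis, had medians of 81.5 and 85.0 CPM, with a log2 fold change of 0.02 (95% interval -0.39 to 0.43). Psat1 (chr19:15904678-15947337, minus strand), the next enzyme of that path, had medians of 136 and 123 CPM, with a log2 fold change of -0.03 (95% interval -0.40 to 0.33). All control and co-culture ranges overlapped for these enzymes. Co-culture library 4 stood out for Psat1, at 205 CPM against 105 to 140 CPM in the other 5.

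**Figure D1:**
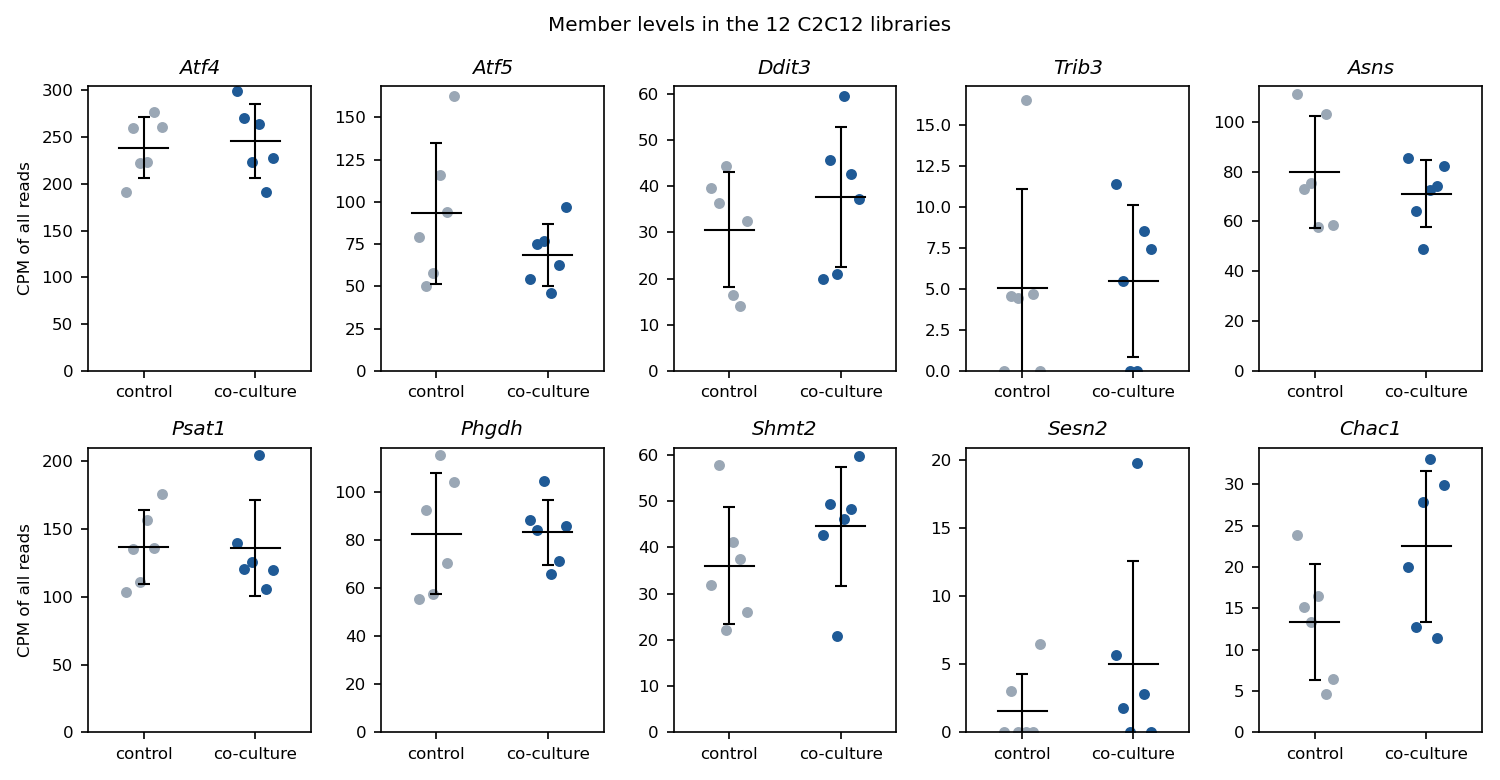
Level of each member in the 12 C2C12 libraries, in CPM of all reads on linear axes that start at 0 and differ between panels; points are libraries, horizontal lines means and bars SDs (n = 6 per group). Control and co-culture points overlap in all 10 panels, and Chac1 shows a mean of 13.3 CPM in controls and 22.5 CPM in co-culture.

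The other 5 members had too few reads for the filter of that test and were fitted among the 9155 C2C12 genes with at least 15 reads in total, of which 57 (0.623%) passed. Sesn2 was below that as well. Ddit3 (chr10:127290774-127296288, plus strand), which encodes CHOP, had 2 to 24 reads per control library and 3 to 25 per co-culture library, or medians of 34.5 and 40.0 CPM, and a log2 fold change of 0.32 (95% interval -0.31 to 0.95). Shmt2 (chr10:127517123-127522444, minus strand), the mitochondrial serine hydroxymethyltransferase, had medians of 34.6 and 47.3 CPM and a log2 fold change of 0.29 (95% interval -0.27 to 0.85). Neither gene's groups were apart. With 1 library left out, the Ddit3 value lay between 0.15 (without control 5) and 0.46 (without co-culture 1), and that of Shmt2 between 0.15 (without control 3) and 0.65 (without control 2).

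Chac1 (chr2:119351229-119354381, plus strand), which degrades glutathione, had the biggest difference of the 9 members in that fit. Its control libraries held 3, 10, 3, 2, 1 and 1 reads and its co-culture libraries 7, 7, 4, 5, 4 and 8 reads. The medians were 14.2 and 23.9 CPM, and the groups overlapped between 11.4 and 23.8 CPM. The log2 fold change was 0.65 (SE 0.42, 95% interval -0.19 to 1.5), with an unadjusted p of 0.127 and an adjusted p of 0.678 in edgeR. Trib3 (chr2:152337422-152344032, minus strand), a pseudokinase that restrains ATF4 and CHOP, had 7 control and 12 co-culture reads, with a log2 fold change of 0.53 (95% interval -0.89 to 1.94). Sesn2 (chr4:132492032-132510501, minus strand), a leucine sensor that holds back mTORC1, had 3 and 7 reads, or 2.0 and 3.86 CPM pooled, with exact 95% intervals of 0.413 to 5.86 and 1.55 to 7.96 CPM. These intervals, like all pooled ones here, cover counting error only. A difference in Trib3 or Sesn2 was not detectable at this depth.

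Other genes of the pathway did not pass in C2C12 either. None of the tested genes passed among 6 eIF2 kinases, eIF2 and phosphatase subunits, 11 aminoacyl-tRNA synthetases, 2 amino acid transporters, 7 partner factors and other stress-induced regulators, 9 endoplasmic reticulum stress genes of the ATF6 and IRE1 branches, and 1 further serine, glycine and folate enzyme. The nearest to the threshold was Lars (leucyl-tRNA synthetase), at -0.89 on the log2 scale (SE 0.23, adjusted p = 0.0524 in edgeR). With no filter on low counts, where 0.687% of all genes passed, 1 of the 18 synthetases did so, in the lower direction, and 0 of the 10 members. Eprs (glutamyl-prolyl-tRNA synthetase) had -0.56 (adjusted p = 0.202), and Slc38a2 (SNAT2, a sodium-coupled neutral amino acid transporter) -0.88 (adjusted p = 0.161). Nupr1, a stress-induced chromatin protein, had 0.36 (adjusted p = 0.0621), and Eif4ebp1, an inhibitor of cap-dependent translation, 0.27 (adjusted p = 0.278). The chaperone Hsp90b1 had -0.42 (adjusted p = 0.0747) and Canx (calnexin) -0.49 (adjusted p = 0.129). The eIF2 subunit genes Eif2s1 and Eif2s3x had -0.23 and -0.18, Mthfd2 (mitochondrial folate enzyme) -0.23 and Slc3a2 (heavy chain of amino acid exchangers) 0.01, all with adjusted p above 0.5. None of the 13 other amino acid and nitrogen enzymes had enough reads for the main test. In the fit of genes with at least 15 reads, 8 of the further serine, glycine and folate enzymes were included, and none passed. Of these, 6 lay above 0 and 2 below, with a median of 0.51, and 1 had an unadjusted p under 0.05 in edgeR.

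**Figure D2:**
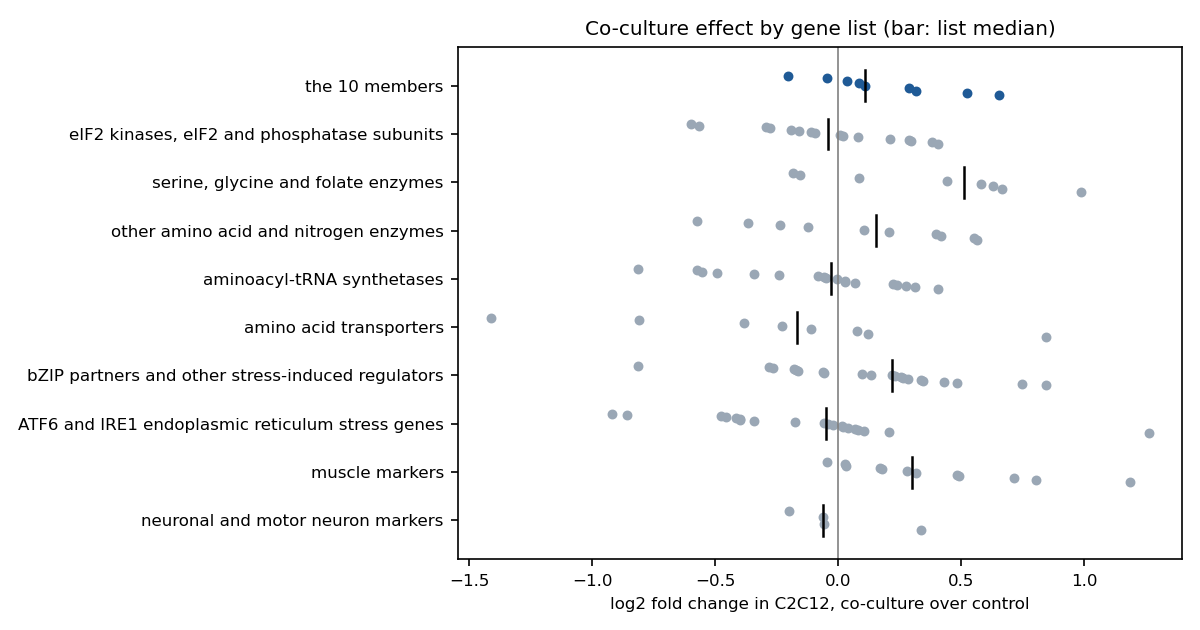
Log2 fold change in C2C12, co-culture over control, for the members and for the other gene lists; each point is a gene with at least 15 reads and each bar the median of its list. The 9 members lie between -0.20 and 0.65 with a median of 0.11, beside a median of 0.02 over all 9155 genes.

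Some markers of muscle differed between the same libraries. The 12 muscle markers summed to 15740 to 19630 CPM in controls and to 19780 to 22070 CPM in co-culture. Of the 10 tested, 8 had log2 fold changes above 0 and 2 below. Those that passed were 3: Mb (log2 fold change 0.73), Ckm (0.64) and Myog (0.43). The neuronal and motor neuron markers summed to 178 to 239 CPM in controls and 175 to 213 CPM in co-culture, with Chat, Isl1, Mnx1, Slc18a3 and Slc5a7 at 0 in both. Stmn2, at 0 in NSC34, gave 176 of the 324 control reads and 193 of the 351 co-culture reads of these markers. The part of the muscle markers' difference in the members' levels was not tested. In such bulk libraries fewer cells of a type and less RNA per cell cannot be told apart.

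Across the 12 C2C12 libraries the tested members had rank correlations of both signs. Among the 5 tested members, rank correlations of log2 CPM ran from -0.69 for Asns with Phgdh to 0.64 for Atf4 with Psat1. The spread of Asns and Phgdh between libraries was about that of counting noise (chi-square over degrees of freedom 0.415 to 1.26). The correlation of Asns with Phgdh therefore cannot tell whether these genes vary together. For Atf4 and Psat1 that ratio was 0.756 and 0.845 in controls, and 2.06 and 1.82 in co-culture. Whether the members vary together was not tested. The tested genes whose levels ranked most like Atf4 were Eef2, the elongation factor of translocation (Spearman's rho 0.895), Ehd1, an endocytic recycling ATPase (0.846), and Clic1, a chloride channel protein (0.839). These are descriptions over the 12 libraries, which differ in depth and belong to 2 groups, and in which the genes of a library share its depth.

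In NSC34 the libraries, the controls most of all, were too shallow for the main test of any member: 49 genes were tested, 0% of them passed, and 1 had an unadjusted p under 0.05. DESeq2 called 0 of them as well. The members held 22 reads in all controls and 110 in all co-culture libraries, or 980 ± 812 and 1931 ± 433 CPM (SD, n = 6 each). Control libraries 1 and 6, with 88 and 822 reads in total, held no read of any member. Among the 764 genes with at least 15 reads, of which 10 (1.31%) passed, 5 members could be fitted and none passed. The median log2 fold change of all 764 genes was 0.33 there, so values near that are not apart from the bulk of genes.

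Ddit3 was the member furthest from 0 in NSC34. The controls held 0, 0, 0, 0, 2 and 0 reads, and the co-culture libraries 2, 14, 3, 0, 4 and 2. Pooled, that is 126 CPM in controls (exact 95% interval 15.3 to 456) and 454.5 CPM in co-culture (294 to 671). The 5 co-culture libraries with a read lay between 419 and 713 CPM, the single control with reads at 432.5 CPM, and the remaining co-culture library at 0. The log2 fold change was 1.86 (SE 0.89, 95% interval 0.12 to 3.60), with an unadjusted p of 0.0366 and an edgeR adjusted p of 0.539. The difference is therefore not past the threshold. Without control library 5 the controls held no Ddit3 read and the fitted value was 4.55 (adjusted p = 0.113), which is no measure of size. In the same libraries the 12 muscle markers summed to 0 to 249 CPM in controls and 0 to 928 CPM in co-culture, from 3 and 18 reads, of which 3 and 17 were Chrna1. The other muscle markers, among them Mylpf and Acta1, the most abundant in C2C12, were at 0 in NSC34 co-culture, but for 1 read of Mb.

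In NSC34 Atf4 had 2 control and 18 co-culture reads, or 126 and 327 CPM pooled, and its log2 fold change of 1.39 (95% interval -0.46 to 3.23) had an adjusted p of 0.721. Psat1 had 4 and 28 reads, or 252 and 509 CPM, with 1.18 (95% interval -0.30 to 2.67). Phgdh had 3 and 12 reads, or 189 and 218 CPM, with 0.27 (95% interval -1.47 to 2.0). Asns had 6 and 14 reads, or 378 and 254.5 CPM, with -0.36 (95% interval -1.86 to 1.14). The intervals of all 4 span 0 and reach changes of more than 2-fold, so neither a rise nor a constant level can be read from them. Of the 6 Asns reads in controls 4 came from control library 2, and without it the value was 0.72. The other members had at most 8 reads in the line: Shmt2 1 and 7, all 7 in co-culture library 2, Atf5 3 and 3, Chac1 1 and 2, Trib3 0 and 1, and Sesn2 0 and 0.

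**Figure D3:**
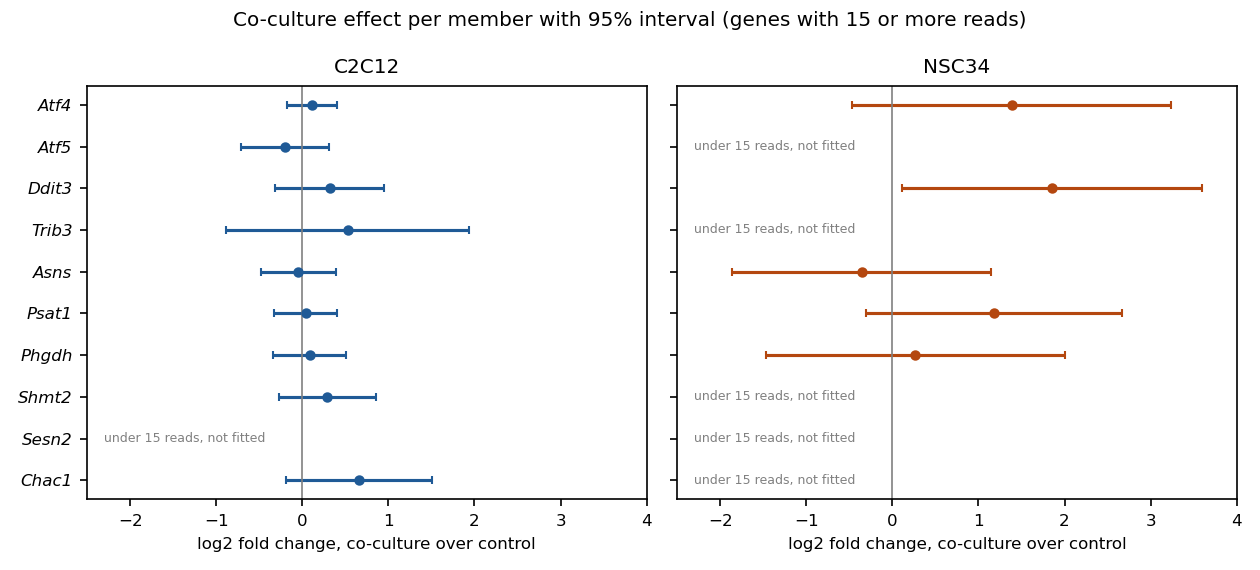
Log2 fold change of co-culture over control for each member with its 95% interval, C2C12 on the left and NSC34 on the right, from edgeR fits of genes with at least 15 reads. The C2C12 intervals all include 0, and in NSC34 only that of Ddit3 (0.12 to 3.60) does not, at an adjusted p of 0.539.

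Between the co-cultured lines, Ddit3 (CHOP) had the largest fitted difference of the 10 members when no filter on low counts was used. In the main fit, lines were compared with library totals as the scale, in a fit of all 4 groups, over 1328 genes. In co-culture, 677 of these (51%) passed, 330 of them (24.8%) higher and 347 (26.1%) lower in NSC34. Such broad differences between a myoblast line and a motor-neuron-like line form the background for each member. The members tested were Atf4, Ddit3, Asns, Psat1 and Phgdh, and the last 4 of these were higher in NSC34. Ddit3, Asns and Phgdh reached the filter of 132 CPM in 6 libraries only through NSC34 libraries. A single read there is worth more than that in most libraries. Neither the count of members passing nor the p-values of Ddit3, Asns and Phgdh under this filter are read as support.

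Ddit3 was 11.7-fold higher in co-cultured NSC34 than in co-cultured C2C12 (3.55 on the log2 scale with an SE of 0.43, adjusted p = 1.78e-08 in edgeR). The C2C12 co-culture libraries ranged from 19.9 to 59.4 CPM, and 5 of the 6 NSC34 libraries from 419 to 713 CPM. The sixth, co-culture library 4, had no Ddit3 read among 3017 reads in total. The groups are apart but for that library. With no filter on low counts, where 6.88% of 15839 genes passed, the value was again 3.55 (adjusted p = 2.28e-14), and it lay between 3.4 and 3.66 when any single library of the 24 was left out.

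Psat1 was 3.92-fold higher in NSC34 (1.97 on the log2 scale, SE 0.34, adjusted p = 1.07e-05), with 314 to 1160 CPM in 5 NSC34 libraries, 0 in co-culture library 4, and 105 to 205 CPM in C2C12. Asns was 3.47-fold higher (1.80, SE 0.45, adjusted p = 0.00102), with 200 to 356 CPM in 5 NSC34 libraries, 0 in co-culture library 1, and 48.8 to 85.5 CPM in C2C12. Phgdh was 2.54-fold higher (1.34, SE 0.50, adjusted p = 0.0227), but its reads came from 3 of the 6 NSC34 libraries, and 9 of the 12 from co-culture library 2. Without that library the Phgdh value was 0.57 (adjusted p = 0.662), and without co-culture library 4 it was 1.13 (0.0686). Phgdh also missed the threshold without the filter (adjusted p = 0.0683).

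Atf4 itself did not pass: in co-culture its difference was 0.40 on the log2 scale (SE 0.33, 95% interval -0.27 to 1.06, adjusted p = 0.38). Pooled over groups, Atf4 stood at 249 CPM in C2C12 and 282 CPM in NSC34. The lower ends of the intervals for Ddit3 and Psat1 were 2.68 and 1.28. Whether the members differ from each other in this was not tested, and Ddit3 met the filter only through NSC34 libraries.

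The comparison depends on the scale in part. TMM with singleton pairing moved the median of all 1328 genes from -0.01 to -0.40 in co-culture and from -0.158 to -0.997 in controls. Higher genes then made up 31.6% of the calls in co-culture in place of 48.7%, and 14% in controls in place of 43.2%. On that scale Ddit3 (3.15), Psat1 (1.57) and Asns (1.41) still passed in co-culture, and Phgdh (0.96, adjusted p = 0.0949) did not.

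In the controls, 310 of the 1328 genes (23.3%) passed, 134 of them (10.1%) higher in NSC34. Asns was the member that passed, 4.73-fold higher in NSC34 (2.24 on the log2 scale, SE 0.67, adjusted p = 0.0156). That call rested on control library 2, with 981 CPM from 4 reads: without it the value was 1.09 (adjusted p = 0.547). It was also lost with singleton pairing (adjusted p = 0.0815) and with no filter (0.0764). Ddit3 had 1.94 (SE 1.18, adjusted p = 0.254), Phgdh 1.19, Psat1 0.89 and Atf4 -0.94, none past the threshold with edgeR. DESeq2 called Ddit3 (2.79, adjusted p = 0.00228) and Phgdh (1.73, 0.0427) besides Asns. The Ddit3 value came from control library 5 alone, and without it the group had no Ddit3 read.

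The members too rare for that fit are given as pooled levels over each line. Atf5 stood at 72.8 CPM in C2C12 and 84.7 CPM in NSC34 (exact 95% interval 31.1 to 184). Shmt2 was at 45.0 and 113 CPM (48.7 to 222), Chac1 at 16.6 and 42.3 CPM (8.73 to 124) and Trib3 at 5.74 and 14.1 CPM (0.357 to 78.6). Sesn2 was at 3.02 CPM in C2C12, and its 0 reads in NSC34 allow up to 42.3 CPM by the limit of 3 reads. No difference between the lines was detectable at this depth for Atf5, Chac1, Trib3 and Sesn2, whose NSC34 intervals include the C2C12 level. Shmt2 in co-culture, with no filter, had a log2 fold change of 1.38 (adjusted p = 0.224).

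**Figure D4:**
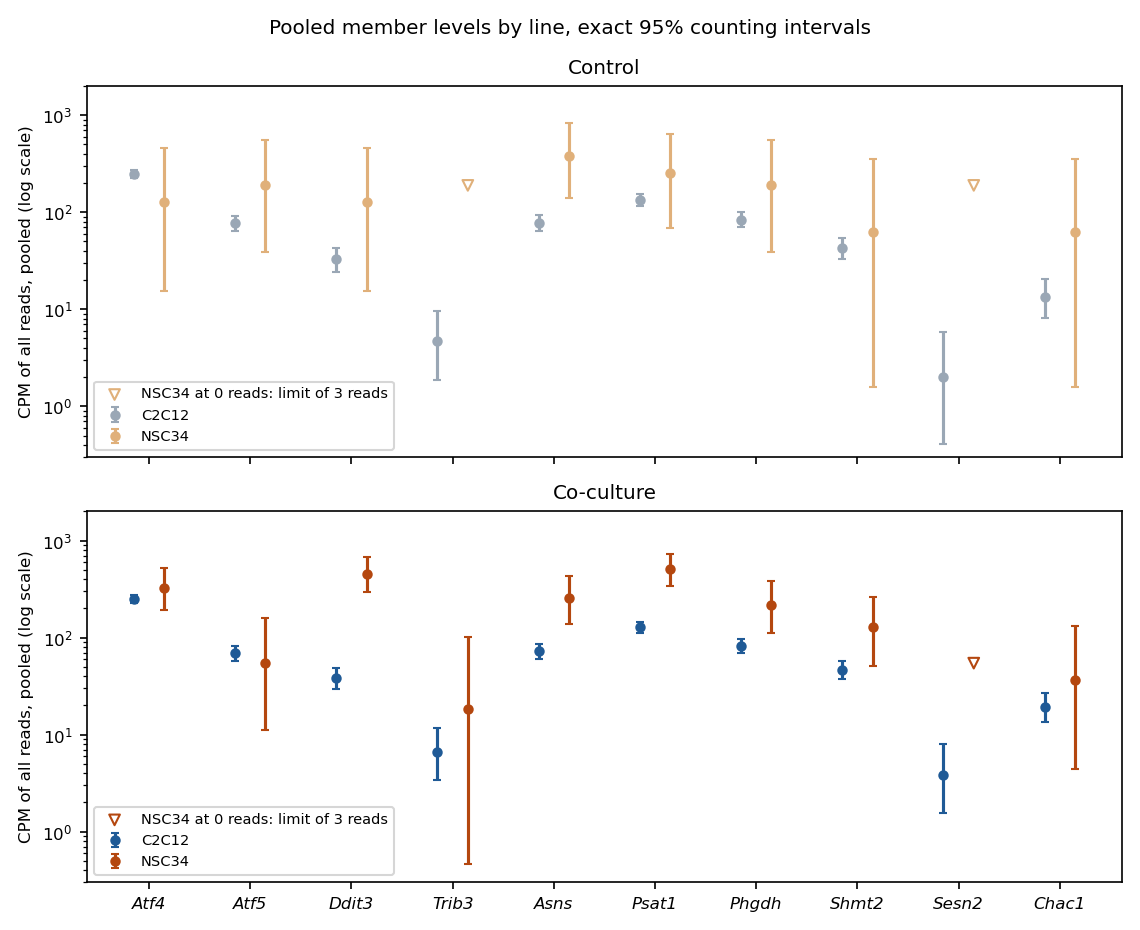
Pooled level of each member by line in controls (top) and co-culture (bottom), in CPM of all reads on a log axis; bars are exact 95% intervals that cover counting error only, and open triangles mark the limit of 3 reads where no read was found. In co-culture Ddit3 stands at 38.1 CPM in C2C12 and 454.5 CPM in NSC34, while Atf4 stands at 250 and 327 CPM.

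Pooled over both groups of a line, the members fell in different orders. In C2C12 Atf4 led with 249 CPM, followed by Psat1 (131), Phgdh (83.4), Asns (74.9) and Atf5 (72.8). Shmt2 (45.0), Ddit3 (35.65), Chac1 (16.6), Trib3 (5.74) and Sesn2 (3.02) came last. The NSC34 levels were 452 CPM for Psat1, 381 for Ddit3, 282 for Atf4 and for Asns, and 212 for Phgdh. Divided by transcript length, Ddit3 stood above Psat1 in NSC34 (428 against 182 CPM per kb) and above Shmt2 in C2C12 (40.0 against 19.8). The order of these genes therefore depends on that division. The NSC34 order is the one of the co-culture libraries in the main, which held 25 of the 27 Ddit3 reads and 28 of the 32 Psat1 reads. In the NSC34 controls Psat1 had 4 reads, Ddit3 2 and Asns 6, so no order is read from such counts. Whether Psat1, Ddit3, Atf4, Asns and Phgdh, with 15 to 32 reads each, differ from each other in NSC34 was not tested.

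Over the 7 other lists of the pathway, 7 of 25 tested genes (28%) were higher in co-cultured NSC34 and 2 (8%) lower, against 24.8% and 26.1% of all tested genes. In either direction that is 36% against 51%, so the shares are near or below those among all genes, and the calls are given as single genes. Of 4 eIF2 pathway genes tested, Eif2s1 (log2 fold change 1.11) and Eif2s3x (0.88) were higher in NSC34 and Eif2s2 lower (-0.70). These encode the alpha, gamma and beta subunits of eIF2. Of 6 aminoacyl-tRNA synthetases, Rars (1.42) and Sars (1.23) were higher. Mthfd1l, a mitochondrial folate enzyme (2.29), Odc1, the first enzyme of polyamine synthesis (2.36), and the glutamine transporter gene Slc1a5 (3.53) were each the single tested gene of their list and were higher. In C2C12 libraries Mthfd1l, Odc1 and Slc1a5 reached at most 55.75, 68.3 and 25.6 CPM. They therefore met the filter of 132 CPM only through NSC34 libraries, and their calls are not read as support. Among 5 partner factors and stress-induced regulators Nupr1 was lower (-2.06), and of 7 endoplasmic reticulum stress genes of the ATF6 and IRE1 branches none passed. In the controls, where 23.3% of all 1328 genes passed, Slc1a5 passed (4.39) and no other gene of these lists did. That value came from 3 Slc1a5 reads in 3 NSC34 control libraries.

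Whether co-culture acted differently on the members in NSC34 and C2C12 was tested as an interaction. Of 1328 genes 0% passed with edgeR, with 105 at an unadjusted p under 0.05, and DESeq2 called 0 as well. The difference of the log2 fold changes, NSC34 minus C2C12, was 1.61 for Ddit3 (SE 0.95, 95% interval -0.33 to 3.54, adjusted p = 0.715). Without NSC34 control 5, which held both control reads of Ddit3, the fitted value was 8.82 (adjusted p = 0.481), a number that depends on how the fit treats a group with no read. With any other single library left out it was at least 1.19. It was 1.34 for Atf4 (-0.34 to 3.02), 1.08 for Psat1 (-0.33 to 2.48), 0.15 for Phgdh (-1.72 to 2.03) and -0.45 for Asns (-1.87 to 0.98). The median over all 1328 genes was 0.09. A difference between the lines in the co-culture effect was not shown for any member, and the widths of the intervals show that large ones could have been missed.

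In C2C12 the members' reads fell mostly on 1 annotated transcript each. Atf4-201 took 816 of 824 C2C12 reads, Psat1-201 428 of 435, Phgdh-201 275 of 276 and Ddit3-201 116 of 118. Atf5 was split between Atf5-201 (209 reads) and the shorter Atf5-203 (32 reads). Shmt2 was split in another way, by library. In controls 3, 4, 5 and 6, all 22 Shmt2 reads were assigned to Shmt2-206, while controls 1 and 2 had 3 of 42 reads on it and the co-culture libraries 3 of 85. In NSC34, Psat1-204, annotated as a retained intron, took 3 of the 4 Psat1 reads in controls and 1 of 28 in co-culture. The 3 Atf5 reads of the NSC34 controls were on Atf5-203, and the 3 of co-culture on Atf5-201.

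The 2 Shmt2 transcripts differ by little. Compared with Shmt2-201, Shmt2-206 lacks 58 bases at the 5′ end of exon 1 and the first 9 bases of exon 2 (chr10:127521107-127521115, GRCm38), and ends 16 bases later. The bases around the junction of exons 1 and 2 show the difference that lies inside the coding sequence, with the 9 bases found only in Shmt2-201 in capitals.
Shmt2-201: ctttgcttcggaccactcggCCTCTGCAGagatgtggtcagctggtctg
Shmt2-206: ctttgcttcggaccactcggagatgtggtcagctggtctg
Sums per gene do not depend on this assignment. Nor was such behaviour limited to Shmt2: among 2348 C2C12 genes with at least 2 transcripts and at least 3 reads in every library, 124 (5.28%) had a transcript with over 80% of the gene's reads in at least 3 libraries and under 20% in at least 3 others. Of the 204 such transcripts, only Shmt2-201 and Shmt2-206 parted controls 3 to 6 from the other 8 libraries, with all shares on one side or the other of an even split, a division that was looked for after the Shmt2 values were seen. How reads were assigned to transcripts is not given in the sources used here.

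**Figure D5:**
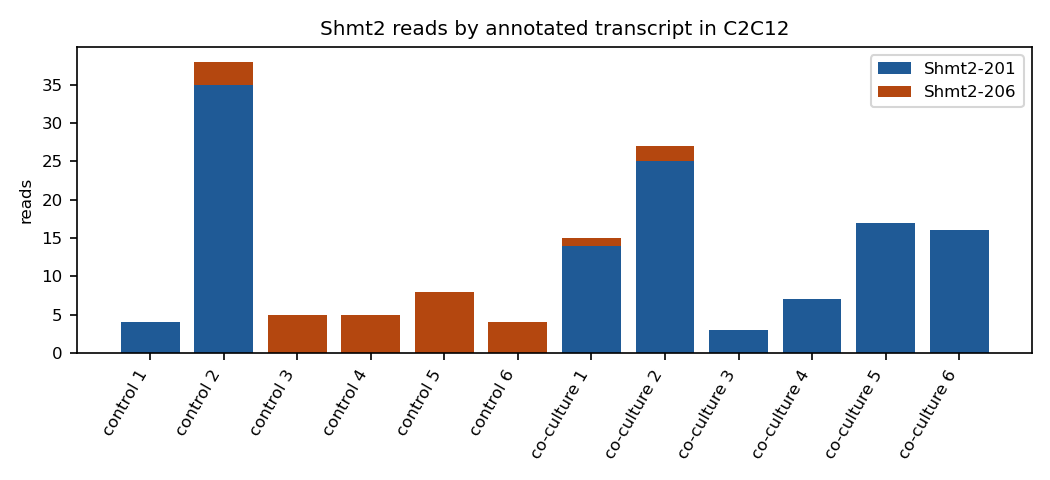
Shmt2 reads per C2C12 library by annotated transcript, as stacked bars from 0 (Shmt2-201 below, Shmt2-206 above). Controls 3 to 6 show 4 to 8 reads each, all on Shmt2-206, and the other 8 libraries hold almost only Shmt2-201.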

How the data were processed

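The authors deposited raw counts, the number of reads per Ensembl transcript, in 1 table per line with no scaling. The build is GRCm38 per the submitters' processing notes; which aligner, counter, annotation release and strand setting were used is not given in the sources used here. Transcripts were matched without version to GENCODE M21 (99.8% of reads in each line) and summed per gene. Columns were matched by name, with 0 left unmatched.

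CPM are reads per 1000000 of all reads of a library. Within a line, co-culture was tested against control with edgeR 4.0.16 in R 4.3.3 (filterByExpr, TMM, quasi-likelihood F test, Benjamini-Hochberg, threshold 0.05). Lines and the interaction were tested in 1 fit of 4 groups scaled by library totals. DESeq2 1.42.0 was an alternative, with other scalings, filters and each library left out. An alternative filter kept genes with at least 15 reads in total. Pooled intervals are exact (Clopper-Pearson, 95%); reads carry no molecular identifiers.

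All members were named whatever their result, and from other lists the genes past the threshold or else up to 2 of smallest p, with the 3 genes ranked most like Atf4. The members and lists were chosen with earlier results of these data known. RefSeq promoters came from GRCm38.p6. Protein sequences were not used here.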

Additional observations from a re-analysis of the deposited data

Results flagged for a closer look

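In 28 groups of 6 libraries, those of genes with at least 15 reads in the line, 3 had a highest or lowest library whose gap to the nearest other one, over the whole range, was above the 95% critical value of Dixon's test. Chance flags about 1 in 20 groups of normally distributed values, a rate that need not hold for counts this low, and a group with reads in a single library always meets the rule. Ddit3 in NSC34 controls stood at 432.5 CPM in control 5, from 2 reads, and at 0 in the other 5 controls, a case of that kind. Trib3 in C2C12 controls stood at 16.5 CPM in control 4, from 2 reads, with the nearest control at 4.69 CPM. Psat1 in C2C12 co-culture stood at 205 CPM in library 4, from 31 reads, with the nearest library at 140 CPM.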

How the results depend on the processing

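No setting brought a member past the threshold in the C2C12, NSC34 or interaction tests. The count of C2C12 genes passing, 37, became 67 with DESeq2, 106 with no filter and 57 with the 15-read filter, and 10 to 70 with 1 library left out; in NSC34, 0 became 10 with the 15-read filter and 0 to 1 with 1 library left out. Between the controls of the lines, 310 became 544 with singleton pairing, where 0 members passed in place of 1, as with no filter, against 3 with DESeq2 and 0 to 1 with 1 library left out. Between the co-cultured lines, 677 became 1089 with no filter. The causes were not tested, except that fewer or more genes were tested under the filters. Values near 0 changed sign. In C2C12 Psat1 was 0.0543 with no filter and 0.0382 with the 15-read filter, and with 1 library left out Psat1 ran from -0.141 to 0.0413, Atf4 from -0.0329 to 0.108 and Phgdh from -0.0737 to 0.0945. In NSC34 Asns was 0.00858 with no filter and -0.729 to 0.722 with 1 library left out, and Phgdh -0.377 to 0.567. Between the control lines Ddit3 ran from -5.27 to 2.37. In the interaction Asns was 0.00801 with singleton pairing and -0.931 to 0.701 with 1 library left out, and Phgdh was -0.295 with DESeq2 and -0.62 to 0.521. Of values that kept their sign, with 1 library left out, Atf5 ran from -0.524 to -0.0326, Trib3 from 0.255 to 0.888 and Chac1 from 0.478 to 0.824 in C2C12, Atf4 from 1.05 to 1.89 in NSC34, and in the interaction Atf4 from 0.845 to 1.91 and Ddit3 from 1.19 to 8.82. NSC34 depth limits every value of that line.

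No pairing by replicate number was seen. Correlations of same-numbered libraries ran from -0.054 to 0.1 in C2C12 and from -0.24 to 0.32 in NSC34, and 1 of 6 controls in each line correlated best with its own number. Counting noise weakens such correlations, so a pairing by design is not excluded. With the replicate number as a block, 26 C2C12 genes passed, and 0 in NSC34 and in the interaction; Atf4 was 0.0216 in C2C12. The block was not run for the comparisons between lines, where a gene with no read in both NSC34 libraries of a number has no finite fit.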
